A study of Mus musculus with 17 samples.

Results

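The genes described here are 10 histone lysine demethylases, Kdm1a, Kdm1b, Kdm2a, Kdm2b, Kdm3a, Kdm4a, Kdm4c, Kdm5a, Kdm5b and Kdm6b, out of 23891 gene symbols measured by RNA-seq in cultured mouse stem cells. They were chosen by name, with earlier results of these data known. Each gene was represented by its RefSeq transcript with the highest mean FPKM over the 17 samples. FPKM is a level in fragments per kilobase of transcript, so corrected for transcript length, and was here scaled by the upper quartile of the library. All 10 were measured in every sample, and the lowest value of any of them was 1.97 FPKM, for Kdm4c in an SSC line. The study asked how spermatogonial stem and progenitor cells (SSCs), which make only sperm in the testis, turn in long-term culture into multipotent adult spermatogonial-derived stem cells (MASCs), and how both compare with embryonic stem cells (ESCs) and other cell types.

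The samples were 4 SSC lines (Oct4-GFP SSC.1 and SSC.2, C57Bl/6J SSC.3 and 129mix SSC.4), 6 MASC lines (Oct4-GFP MASC.1 and MASC.2, 129mix MASC.3 and MASC.4, Gt(ROSA26)Sor-lacZ MASC.5 and MASC.6) and 2 ESC lines (Oct4-GFP ESC.1 and 129mix ESC.2). To these were added 2 iPS cell lines (129mix), made with 2 µg/ml doxycycline from fibroblasts of E13.5 embryos, from a cross of tetO-4F2A with H3.3B-HA mice, 2 cultures of haematopoietic stem and progenitor cells (HSCs, C57Bl/6J) and 1 sample of mouse embryonic fibroblasts (MEF, 129mix, E13.5, H3.3B-HA). SSCs came from adult testis and were grown with GDNF, bFGF and EGF, whereas MASCs, ESCs and iPS cells were kept with LIF. All of these lines shared MEF feeder cells, MASC and iPS lines were each picked as colonies, and the HSC cultures were lineage-depleted bone marrow cells expanded with soluble Kit ligand on human endothelial feeders. Lines of 1 group can share a strain, no source states that they came from separate animals, and the p-values therefore measure only the spread between these lines.

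Histone demethylases remove methyl groups from lysines of the histone tails, and so reverse marks that go with active promoters (H3K4 methylation), Polycomb repression (H3K27 methylation), heterochromatin (H3K9 methylation) or transcribed gene bodies (H3K36 methylation). Kdm1a and Kdm1b are flavin-dependent oxidases that act on mono- and dimethyl H3K4, and the other members use iron and alpha-ketoglutarate in a JmjC domain. Mouse germ cells and embryonic stem cells are known for extensive changes of these marks, and several of the enzymes are known to be needed in them, among them Kdm1a in spermatogonia and Kdm1b in oocytes, where it is required for maternal DNA methylation imprints.

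The sequences upstream of 4 start sites are shown. Kdm1b and Kdm4c had the largest differences of the 10 between SSCs and MASCs. For Kdm2b, the FPKM shares of transcripts with distant annotated start sites differed between SSCs and MASCs. Use of the start sites themselves was not measured. The sequences are read 5′ to 3′ on the strand of the gene from mm9 (NCBI build 37, strand from GENCODE). Bases that belong to an exon of a protein-coding gene were left out. Capitals mark GC boxes, spelled GGGCGG, the CCAAT box, and E-boxes, which are spelled CACGTG, on either strand, with overlapping copies all in capitals.
Kdm1b, chr13:47138713-47138867, plus strand, ending 1 base before the start of NM_172262: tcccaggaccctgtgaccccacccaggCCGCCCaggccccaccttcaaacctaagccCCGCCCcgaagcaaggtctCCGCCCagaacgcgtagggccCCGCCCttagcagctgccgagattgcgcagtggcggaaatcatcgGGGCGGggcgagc
Kdm4c, chr4:73897533-73897782, plus strand, ending 1 base before the start of NM_144787: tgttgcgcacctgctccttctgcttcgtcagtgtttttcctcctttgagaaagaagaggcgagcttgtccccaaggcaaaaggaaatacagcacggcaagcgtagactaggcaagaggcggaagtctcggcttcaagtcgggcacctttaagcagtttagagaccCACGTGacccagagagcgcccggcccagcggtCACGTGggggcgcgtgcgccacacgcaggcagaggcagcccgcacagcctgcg
Kdm2b short transcript, chr5:123350365-123350609, minus strand, ending 6 bases before the start of NM_013910: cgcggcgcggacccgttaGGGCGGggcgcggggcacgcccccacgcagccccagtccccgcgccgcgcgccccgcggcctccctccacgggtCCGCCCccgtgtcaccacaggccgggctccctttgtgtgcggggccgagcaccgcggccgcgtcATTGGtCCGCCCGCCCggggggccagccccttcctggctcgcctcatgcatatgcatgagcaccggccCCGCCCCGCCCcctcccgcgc
Kdm2b long transcript, chr5:123438546-123438792, minus strand, ending 4 bases before the start of NM_001005866: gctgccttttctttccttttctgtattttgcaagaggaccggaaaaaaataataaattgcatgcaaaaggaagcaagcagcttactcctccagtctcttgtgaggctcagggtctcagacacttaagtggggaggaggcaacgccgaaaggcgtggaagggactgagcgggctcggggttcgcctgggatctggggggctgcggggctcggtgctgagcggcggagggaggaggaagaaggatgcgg

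The Kdm1b stretch held 5 GC boxes in 155 bases and lay beside an exon of Tpmt, and the Kdm4c stretch held 2 E-boxes and 19 CG dinucleotides in 250 bases and overlapped an exon of the noncoding transcript A230083N12Rik by 76 bases. Upstream of the short Kdm2b transcript there were 6 GC boxes, 1 CCAAT box and 36 CG dinucleotides in 245 bases. The stretch before the long transcript NM_001005866 had none of these 3 motifs and 12 CG dinucleotides in 247 bases. It lies downstream of the start of another long transcript, NM_001003953. The window of 250 bases before that start held 25 CG dinucleotides and none of the 3 motifs. It is not printed, since 214 of its bases belong to exons of Kdm2b. Among 23362 windows of 250 bases before the starts of all transcripts with a strand, 43.6% held a GC box, 34.7% a CCAAT box and 6.8% an E-box, and the median number of CG dinucleotides was 10. These matches are descriptions of the letters only.

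The files hold no read counts. At 1 FPKM the deposited coverage was between 1.26 and 3.23 reads per base, and between 13532 and 16272 transcripts per sample reached 1 FPKM. The labels were checked against marker genes: the summed FPKM of 6 pluripotency markers was 1379 to 2641 in the 10 MASC, ESC and iPS lines and 7.39 to 114 in SSCs, where SSC.1 was the highest. Summed over 7 fibroblast markers, the level ranged from 3.40 to 726 FPKM in SSCs, from 15.7 to 842 in MASCs and was 5182 in MEF. In both HSC cultures 3 mast cell markers summed to 12740 and 7177 FPKM, and in the MEF sample 6 blood markers summed to 70.55 FPKM. In bulk samples such as these, fewer cells of a type and less RNA per cell cannot be told apart.

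Summed over the 10 demethylases, FPKM was 341 to 393 in SSCs, 244 to 303 in MASCs, 260 and 279 in ESCs, 269 and 297 in iPS cells, 111 and 145 in HSCs and 115 in MEF. Every SSC line was above every other sample in this sum. Kdm1a had the highest group mean of the 10 in all 6 groups and Kdm5b was next in SSCs, MASCs, ESCs and iPS cells. Their SSC ranges, 66.6 to 99.0 FPKM for Kdm1a and 49.2 to 88.9 FPKM for Kdm5b, overlapped. In HSCs and MEF Kdm4a, which acts on trimethyl H3K9 and H3K36, took the place after Kdm1a, with means of 23.9 and 26.0 FPKM. The lowest member was Kdm4c in SSCs, with a mean of 2.76 FPKM and no overlap with the next, Kdm4a at 16.2 FPKM, and it was Kdm1b in each of the other groups.

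**Figure D1:**
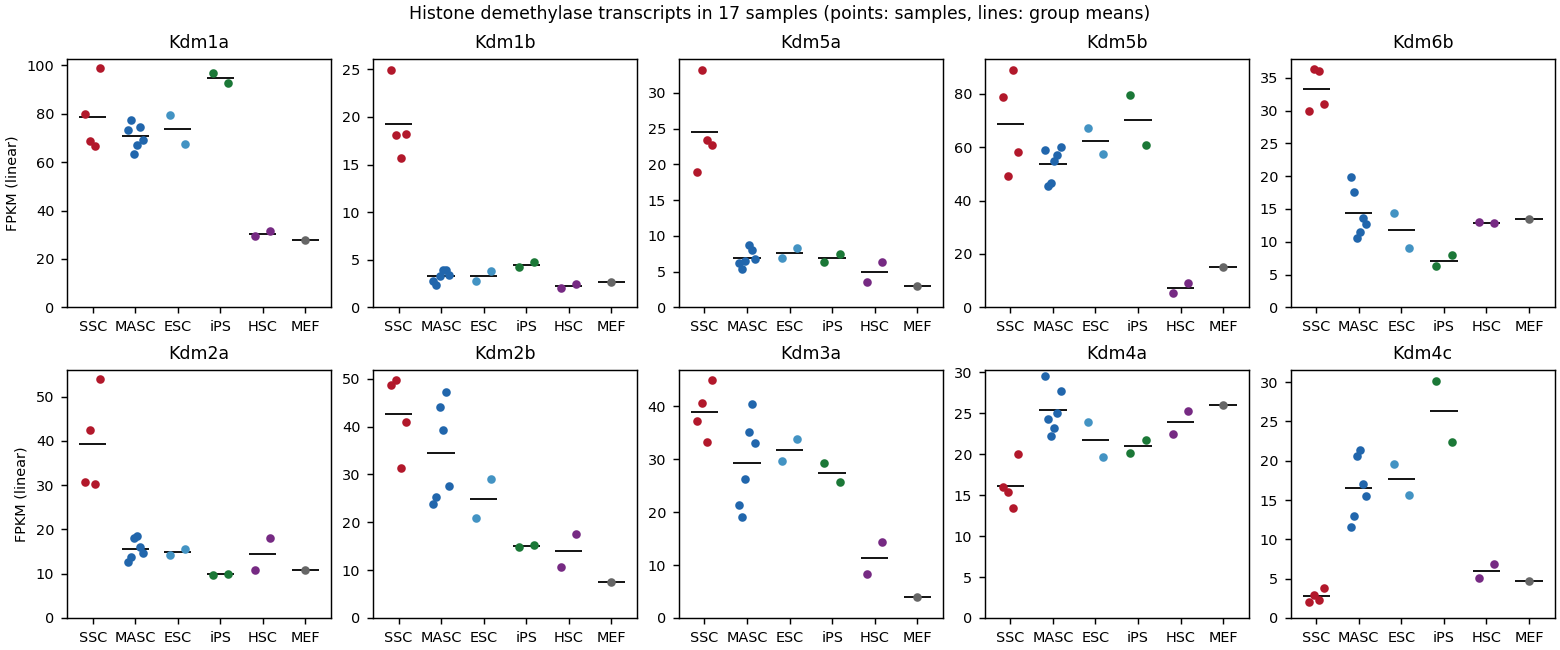
FPKM on a linear axis from 0 for each of the 10 demethylases, with 1 point per sample, the 6 groups on the horizontal axis and a line at each group mean. SSC lines stand above all other samples for Kdm1b, Kdm5a, Kdm6b and Kdm2a, and below all other samples for Kdm4c.

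MASCs were then compared with the SSCs from which such lines arise. Of the 10 demethylases, 2 were higher in MASCs and 4 were lower at an adjusted p under 0.05 (limma, log2(FPKM + 1)), and the same 6 did not overlap between the groups. Over all 32661 transcripts the shares were 11.4% higher and 19.5% lower, and without overlap they were 9.91% above and 15.4% below. Of the expressed transcripts (1 FPKM or more in no fewer than 2 lines), 17.9% were higher and 27.9% lower. The 2 that rose were the H3K9 and H3K36 enzymes Kdm4c and Kdm4a, and those that fell were Kdm1b, Kdm5a, Kdm2a and Kdm6b. With the samples set to equal medians, an alternative chosen after the data were seen, the demethylases again counted 2 and 4. Of all transcripts, 47.8% were then called higher and 13.8% lower. The medians came from transcripts with a mean of 1 FPKM or more, but unexpressed transcripts were shifted too. The 47.8% therefore does not tell how many transcripts rose and is no measure for the demethylases. The median difference of the 10 as deposited was -0.39 on the log2 scale, that of all transcripts was -0.0048 and that of the expressed ones was -0.16.

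Kdm1b (NM_172262, chr13:47138868-47180648), the H3K4 demethylase also called LSD2, was 24.9, 18.1, 15.6 and 18.2 FPKM in SSC.1 to SSC.4 and 2.32 to 3.96 FPKM in MASCs, with a median of 3.36. All 4 SSC lines lay far above all 6 MASC lines, and the Cufflinks confidence bounds did not meet either, since the lowest SSC bound was 14.8 and the highest MASC bound was 4.26 FPKM. The difference was -2.24 (SE 0.15, limma adjusted p = 6.27e-06, n = 6 and 4). Its close relative Kdm1a (LSD1, NM_133872, chr4:136106448-136158638) was 80.1, 68.9, 66.6 and 99.0 FPKM in SSCs and 63.2 to 77.4 FPKM in MASCs, with a median of 71.3. These ranges overlapped, and the difference of -0.13 (SE 0.11, limma adjusted p = 0.428) was not called, had a 95% interval from -0.38 to 0.11, and turned to 0.12 where the samples were set to equal medians. The level of Kdm1a divided by that of Kdm1b was 3.21 to 5.45 in SSCs and 16.9 to 33.4 in MASCs.

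The H3K4 di- and trimethyl demethylase Kdm5a (NM_145997, chr6:120314117-120394592) was 19.0, 33.2, 23.4 and 22.7 FPKM in SSCs and 5.38 to 8.78 FPKM in MASCs, with a median of 6.60. The groups were apart in every line, by -1.67 (SE 0.16, limma adjusted p = 4.97e-05). Kdm5b (NM_152895, chr1:136456755-136529455), which removes the same mark, was 78.8, 49.2, 88.9 and 58.4 FPKM in SSCs and 45.5 to 60.2 FPKM in MASCs, with a median of 56.0. The 2 groups of Kdm5b values overlapped, and the difference of -0.32 (SE 0.16, limma adjusted p = 0.185) was not called, though it was without SSC.2, the lowest SSC line, at -0.46 (limma adjusted p = 0.0417). Thus Kdm5b stood 1.48 to 4.16 times above Kdm5a in SSCs and 6.25 to 9.54 times above it in MASCs.

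Kdm6b (NM_001017426, chr11:69212020-69227177), which removes the Polycomb mark H3K27me3, was 29.9, 36.3, 35.99 and 31.0 FPKM in SSCs. In MASCs it was between 10.6 and 19.8 FPKM with a median of 13.2. No MASC line reached the lowest SSC line, and the difference was -1.19 (SE 0.19, limma adjusted p = 0.000919). Kdm2a (NM_001001984, chr19:4316147-4397077), a CXXC-domain protein of CpG islands that acts on H3K36, was 30.7, 42.4, 30.2 and 53.9 FPKM in SSCs and 12.6 to 18.5 FPKM in MASCs, with a median of 15.4. Its values also did not overlap, and the difference was -1.25 (SE 0.17, limma adjusted p = 0.000437).

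In the opposite direction, Kdm4c (NM_144787, chr4:73897783-74051768), which demethylates trimethyl H3K9 and H3K36, was 1.97, 2.94, 2.28 and 3.85 FPKM in SSCs and 11.6 to 21.4 FPKM in MASCs, with a median of 16.3. The lowest MASC line was above the highest SSC line, as were the confidence bounds of single lines (highest SSC bound 4.20, lowest MASC bound 10.9 FPKM). Kdm4c rose by 2.21 (SE 0.20, limma adjusted p = 3.04e-05). Kdm4a (NM_001161823, chr4:117809609-117852648), of the same subfamily, was 15.95, 15.3, 13.4 and 20.0 FPKM in SSCs and 22.3 to 29.5 FPKM in MASCs, with a median of 24.7. It rose by 0.62 (SE 0.11, limma adjusted p = 0.00241) without overlap, a smaller difference than that of Kdm4c. The ratio of Kdm4c to Kdm4a went from 0.123 to 0.193 in SSCs to 0.393 to 0.923 in MASCs.

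Kdm3a (NM_001038695, chr6:71538964-71582911), a demethylase of mono- and dimethyl H3K9 needed for sperm maturation, was 37.2, 40.6, 33.2 and 44.9 FPKM in SSCs and 19.0 to 40.5 FPKM in MASCs, with a median of 29.6. The ranges overlapped, and the difference of -0.45 (SE 0.21, limma adjusted p = 0.139) was not called. It was called at -0.76 when strain was taken as a block and at -0.45 when the transcripts of each gene were summed (limma adjusted p = 0.00931 and 0.0397).

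Within strains, the 6 called genes kept their direction in both strains that had lines of both groups. Among Oct4-GFP lines, with 2 MASC and 2 SSC lines, the differences were -2.66 for Kdm1b, -1.95 for Kdm5a, -1.38 for Kdm2a, -0.79 for Kdm6b, 0.74 for Kdm4a and 1.95 for Kdm4c. Among 129mix lines, with 2 MASC lines and 1 SSC line, they were -2.05, -1.47, -1.51, -1.40, 0.18 and 2.18 in the same order. Fibroblast markers differed among lines of both groups. Without the 4 lines above 200 FPKM of the summed markers (SSC.1, SSC.3, MASC.1 and ESC.1), the 6 called genes kept their direction and call. The share of all transcripts called in that smaller fit is not given here.

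**Figure D2:**
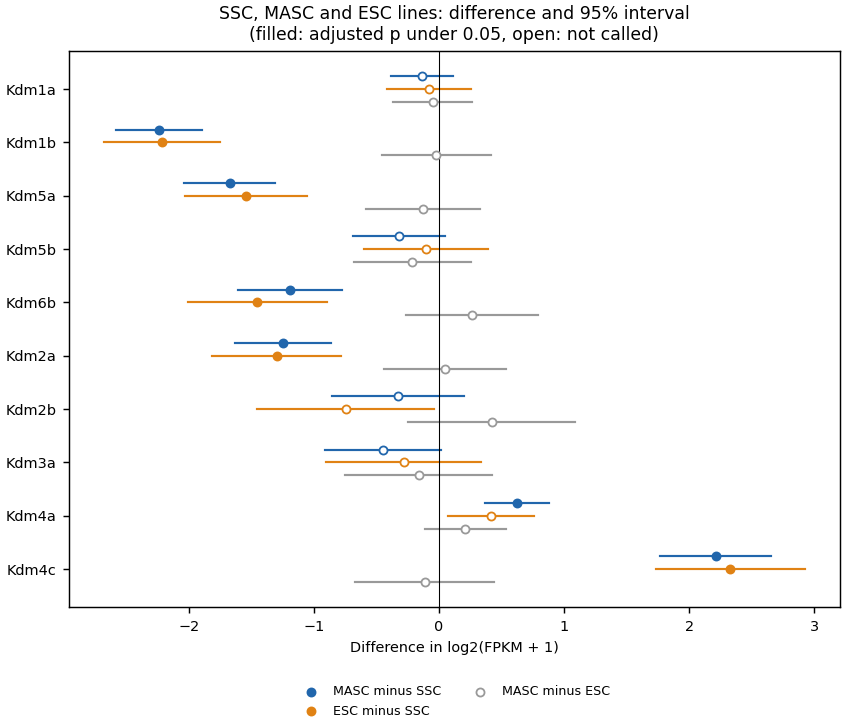
Difference in log2(FPKM + 1) on the horizontal axis for each demethylase in MASC minus SSC, ESC minus SSC and MASC minus ESC, with 95% intervals from limma and filled points where the adjusted p was under 0.05. The MASC and ESC differences from SSC lie close together, at -2.24 and -2.22 for Kdm1b and 2.21 and 2.33 for Kdm4c, and all MASC minus ESC intervals include 0.

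The transcripts of Kdm2b, which binds unmethylated CpG islands and brings a Polycomb complex to them, were measured apart. The short one (NM_013910, chr5:123320685-123350359) starts inside the gene, 88183 bases downstream of the start of the long NM_001005866, and the other long transcript, NM_001003953, starts a further 559 bases upstream. The short form is known to lack the JmjC domain and to keep the CXXC domain. It was the main form in all samples and stands for Kdm2b among the 10 genes. Its level was 48.7, 49.8, 31.4 and 40.9 FPKM in SSCs and 23.8 to 47.3 FPKM in MASCs, with a median of 33.4. These overlapped, and the difference of -0.33 (SE 0.24, limma adjusted p = 0.358) was not called.

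The long forms differed. NM_001003953 was 0.460, 1.07, 0.300 and 0.995 FPKM in SSCs and 3.70 to 11.8 FPKM in MASCs, and NM_001005866 was 4.84, 1.39, 1.27 and 0.793 FPKM in SSCs and 5.62 to 10.2 FPKM in MASCs. In both the MASC lines lay above all SSC lines. The Cufflinks bounds were apart for NM_001003953 (highest SSC bound 1.24, lowest MASC bound 3.26 FPKM). For NM_001005866 they overlapped (highest SSC bound 5.245, lowest MASC bound 5.13 FPKM). NM_001003953 rose by 2.05 (SE 0.29, limma adjusted p = 0.000525) and NM_001005866 by 1.76 (SE 0.30, limma adjusted p = 0.00163). Together the long transcripts made up 9.81, 4.71, 4.78 and 4.19% of the Kdm2b FPKM in SSC.1 to SSC.4, and 26.7 to 34.6% in MASCs, with a median of 30.2%. The means were 5.87% ± 2.64 (SD, n = 4) and 30.4% ± 3.51 (SD, n = 6), and the difference of 24.5 percentage points had p = 0.00952 in a two-sided exact permutation test, which is the smallest p that 6 lines against 4 allow. With all MASC lines above all SSC lines no other p was possible, so the p adds nothing to the lack of overlap. The share of the long transcripts was chosen for a test after its values were seen. It was 32.7 and 25.8% in ESCs, 30.5 and 22.9% in iPS cells, 23.5 and 27.1% in HSCs and 16.5% in MEF, so that SSCs were the lowest of all 17 samples. Cufflinks divides reads from shared exons between transcripts by a model, and with the transcripts of the gene summed, the Kdm2b difference between MASCs and SSCs was 0.10 and not called.

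**Figure D3:**
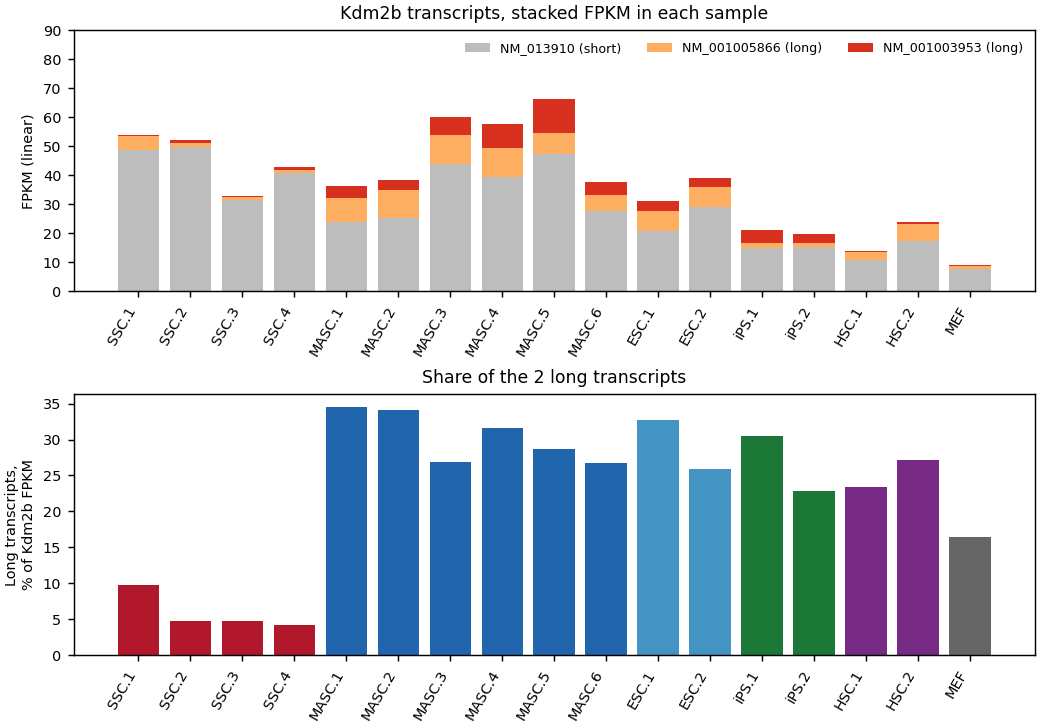
Upper panel, FPKM of the short and the 2 long Kdm2b transcripts stacked for each of the 17 samples, and lower panel, the percent of Kdm2b FPKM in the long transcripts, coloured by group, both axes starting at 0. The 4 SSC lines are at 4.19 to 9.81%, the 6 MASC lines at 26.7 to 34.6%.

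ESCs served as the pluripotent reference. Against the same SSC lines, 1 demethylase was higher in the 2 ESC lines and 4 were lower (limma), beside 7.67% higher and 13.8% lower over all transcripts, or 14.4% above and 23.1% below without overlap. Since both comparisons share the SSC lines, their values are only set side by side. Kdm4c was 19.6 and 15.7 FPKM in ESCs and rose by 2.33 (SE 0.26, limma adjusted p = 0.000268). Kdm1b was 2.80 and 3.85 FPKM in ESCs beside an SSC mean of 19.2 FPKM, and its difference was -2.22 (SE 0.21, limma adjusted p = 8.67e-05). The other 3 that fell were Kdm5a by 1.55, Kdm6b by 1.45 and Kdm2a by 1.30, with limma adjusted p = 0.00091, 0.00266 and 0.00322. All 5 did not overlap with SSCs, nor did Kdm2b, at 20.9 and 29.0 FPKM in ESCs, whose difference of -0.75 (SE 0.32, limma adjusted p = 0.132) was not called. Kdm4a, at 23.97 and 19.6 FPKM in ESCs, differed by 0.41 (SE 0.15, limma adjusted p = 0.088) and was not called, and ESC.2 was below the highest SSC line. Without SSC.4, that highest line, Kdm4a was called at 0.515 (limma adjusted p = 0.0258). The long Kdm2b transcripts NM_001003953 and NM_001005866 were higher in ESCs by 1.37 and 1.51 (limma adjusted p = 0.0326 and 0.0255), calls that were lost without ESC.1, ESC.2 or SSC.3 for both and without SSC.1 for the former, with values from 1.25 to 1.51. Both were also lost with the replicate block (1.535 and 1.32) and the strain block (1.18 and 1.46), and NM_001003953 without the lines of high fibroblast markers (1.098).

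MASCs and ESCs were not told apart by any of the 10 genes. The count was 0 higher and 0 lower (limma), beside 0.00306% higher and 0.0276% lower over all transcripts. At an unadjusted p under 0.05, for which no share of all transcripts was taken, 0 of the 10 passed. The MASC and ESC values overlapped for each of the 10, so that 0 stood apart, beside 3.39% above and 2.2% below over all transcripts. The differences ran from -0.22 for Kdm5b to 0.42 for Kdm2b, whose 95% interval from -0.25 to 1.09 was the widest. For Kdm1b the difference was -0.02 with an interval from -0.46 to 0.42, and for Kdm4c it was -0.12 with an interval from -0.68 to 0.44. With 2 ESC lines, true differences of any size inside these intervals remain possible.

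The MASC lines also differed among themselves. In the 2 Oct4-GFP lines, MASC.1 and MASC.2, 6 of the 10 demethylases were below all 4 other MASC lines and 1 was above them, beside 17.9% below and 16.9% above over all transcripts. Kdm3a was 21.3 and 19.0 FPKM in these lines and 26.2 to 40.5 FPKM in the others, and Kdm4c was 11.6 and 12.9 FPKM against 15.5 to 21.4 FPKM. The other members below were Kdm1b, Kdm5a, Kdm2a and Kdm2b. Kdm6b was the one above, at 19.8 and 17.6 FPKM against 10.6 to 13.6 FPKM. No test was made of this split, and MASC.1 also had the highest summed fibroblast markers of the MASC lines, at 842 FPKM, where MASC.2 had 97.3 FPKM.

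The iPS cell lines, pluripotent cells of another origin, were set against ESCs in a fit over all 17 samples. Again 0 members were higher and 0 lower (limma), beside 0.196% and 0.113% of all transcripts. At an unadjusted p under 0.05, for which no share of all transcripts was taken, 2 of the 10 passed. One of these was Kdm1a, at 97.0 and 92.8 FPKM in iPS cells and 79.4 and 67.6 FPKM in ESCs, with a difference of 0.37 (SE 0.16, limma adjusted p = 0.581). The other was Kdm6b, at 6.28 and 7.91 FPKM against 14.4 and 9.10 FPKM, with a difference of -0.63 (SE 0.27, limma adjusted p = 0.564). Without overlap, 3 of the 10 were above and 4 below in iPS cells, beside 18.2% and 21.6% of all transcripts in a comparison of 2 lines with 2.

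Against the single MEF sample, whose own spread was not measured and was assumed to be that of the other groups, 4 demethylases were higher in iPS cells and 0 were lower (limma), beside 11.4% higher and 10.3% lower over all transcripts. With a single MEF sample 7 members stood above and 3 below without overlap, beside 42.4% and 34.9% of all transcripts. Kdm3a was 29.2 and 25.7 FPKM in iPS cells and 4.01 FPKM in MEF, a difference of 2.50 (SE 0.40, limma adjusted p = 0.00102). Kdm4c was 30.2 and 22.4 FPKM against 4.72 FPKM, which is 2.24 (SE 0.37, limma adjusted p = 0.00113). Both enzymes act on H3K9 methylation, but so does Kdm4a, which lay below MEF, at 20.1 and 21.8 FPKM against 25.99 FPKM. Kdm5b was 79.5 and 60.8 FPKM in iPS cells and 15.2 FPKM in MEF, and differed by 2.12 (SE 0.35, limma adjusted p = 0.00112). Kdm1a was 27.7 FPKM in MEF and differed by 1.74 (SE 0.19, limma adjusted p = 7.85e-05). Kdm6b, at 13.49 FPKM in MEF, differed by -0.85 (SE 0.33, limma adjusted p = 0.0928) and was not called, except with strain as a block (limma adjusted p = 0.021). The blood markers in the MEF sample, at 70.55 FPKM, stand beside these values, and their part was not tested. The demethylases Kdm5d and Uty of the Y chromosome were 0.00190 and 0.00200 FPKM in MEF. In the iPS lines Kdm5d was 1.16 and 1.31 FPKM and Uty was 5.63 and 5.21 FPKM. The 2 groups thus also differed in Y-linked RNA, whose part was not tested.

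HSC cultures were compared with the mean of the MASC, ESC and iPS group means. The count was 0 higher and 5 lower (limma), beside 15.9% higher and 17.4% lower over all transcripts. At an unadjusted p under 0.05, for which no share of all transcripts was taken, 7 passed. Without overlap 4 lay below, beside 15.6% above and 20.1% below over all transcripts. Kdm5b was 5.31 and 9.15 FPKM in HSCs and 45.5 to 79.5 FPKM in the 10 pluripotent lines, with a median of 58.3. It had the largest difference of the 10, at -2.96 (SE 0.22, limma adjusted p = 9.97e-07). Kdm1a, the partner of Gfi1 in blood cells, was 29.4 and 31.6 FPKM in HSCs and 63.2 to 97.0 FPKM in the pluripotent lines, and differed by -1.34 (SE 0.13, limma adjusted p = 6.45e-06). Both lay below every pluripotent line, as did Kdm4c, at 5.14 and 6.83 FPKM with a difference of -1.56, and Kdm3a, at 8.29 and 14.3 FPKM with a difference of -1.33 (limma adjusted p = 0.000289 and 0.0018). The fifth, Kdm1b, was 1.99 and 2.50 FPKM in HSCs and overlapped with MASCs, and its call at -0.52 (SE 0.18, limma adjusted p = 0.0412) was lost when any 1 of 9 lines was left out, with values from -0.63 to -0.40. These 9 were MASC.3 to MASC.6, ESC.2, both iPS lines and both HSC cultures. Kdm5a, at 3.59 and 6.39 FPKM in HSCs, was not called (-0.47, limma adjusted p = 0.12) but was without HSC.2, at -0.82 (limma adjusted p = 0.0385). All HSCs were C57Bl/6J, a strain otherwise present only in SSC.3, and with strain as a block 2 of the 5 calls, those of Kdm5b and Kdm1a, stayed, while Kdm4c at -1.19, Kdm3a at -0.86 and Kdm1b at -0.082 were no longer called. Mast cell markers summed to 7177 FPKM or more in both HSC cultures, and their part in these values was not tested.

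Set against SSCs, HSCs had 2 demethylases higher and 8 lower (limma), beside 12.7% and 20.7% of all transcripts. The same 10 did not overlap, beside 15.8% above and 27.1% below. Kdm5b, Kdm1b and Kdm5a had the largest differences, at -3.09, -2.62 and -2.10 (limma adjusted p = 1.54e-06, 8.08e-07 and 2.74e-05). The others that fell were Kdm3a by 1.74, Kdm2b by 1.55, Kdm2a by 1.38, Kdm1a by 1.32 and Kdm6b by 1.30. With strain as a block Kdm2b was not called, at -1.14 (limma adjusted p = 0.0733). Kdm4c and Kdm4a were higher in HSCs by 0.91 and 0.55 (limma adjusted p = 0.0173 and 0.011). In both of these the HSC cultures were above all SSC lines, but without HSC.2 neither was called, at 0.73 and 0.47, and with the replicate block Kdm4a was not called either, at 0.51 (limma adjusted p = 0.0597). HSC.2 had 341 FPKM of summed fibroblast markers and HSC.1 had 1.099 FPKM.

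**Figure D4:**
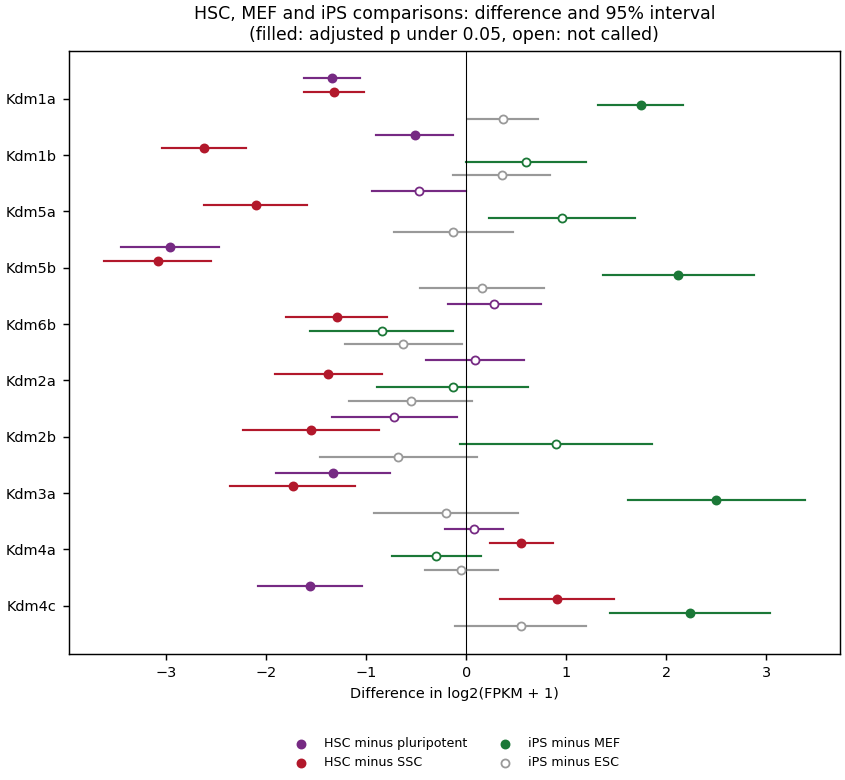
Difference in log2(FPKM + 1) for each demethylase in HSC minus the mean of the pluripotent groups, HSC minus SSC, iPS minus MEF and iPS minus ESC, with 95% intervals from limma and filled points where the adjusted p was under 0.05. Kdm5b lies at -2.96 and -3.09 in the HSC comparisons and at 2.12 in iPS minus MEF, and no iPS minus ESC point is filled.

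Under a stricter rule, a log2 difference of 2 or more and an unadjusted p below 0.05, which is 1 reading of the criterion in the methods of the study, fewer of the 10 were counted. In MASCs against SSCs these were Kdm4c above and Kdm1b below, 1 each, beside 1.81% and 2.21% of all transcripts, and in ESCs against SSCs again 1 each, beside 1.97% and 2.54%. Between MASCs and ESCs the counts were 0 and 0, beside 0.0398% and 0.107%, and between iPS cells and ESCs 0 and 0, beside 0.168% and 0.178%. HSCs had 0 above and 1 below against the pluripotent groups, beside 4.63% and 3.96%, and 0 above and 3 below against SSCs, beside 4.32% and 5.21%. Against MEF, iPS cells had 3 above and 0 below, beside 4.67% and 4.94%.

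A further 16 histone demethylases and related JmjC proteins were followed as a list. In MASCs 2 of the 16 were higher and 4 lower than in SSCs (limma), with a median difference of -0.27, beside the 11.4% higher and 19.5% lower of all transcripts. The 2 that rose were Kdm6a (UTX, an H3K27 demethylase) and Kdm5c (an H3K4 demethylase), both on the X chromosome. X-linked Phf8 of the same list, named after its values were seen, fell by 0.78 (SE 0.12, limma adjusted p = 0.00108), from 8.97 to 12.2 FPKM in SSCs to 3.94 to 6.53 FPKM in MASCs. Kdm6a was 2.64, 5.33, 4.00 and 4.36 FPKM in SSCs and 9.11 to 16.8 FPKM in MASCs, and rose by 1.47 (SE 0.20, limma adjusted p = 0.000438). Kdm5c was 4.75, 4.93, 6.13 and 5.63 FPKM in SSCs and 13.8 to 16.2 FPKM in MASCs, and rose by 1.37 (SE 0.11, limma adjusted p = 1.71e-05). Both were also higher in ESCs, by 1.77 and 1.55. The autosomal enzymes Kdm6b and Kdm5a, which act on the same marks, were lower in MASCs, and Kdm6a divided by Kdm6b was 0.0881 to 0.147 in SSCs and 0.493 to 1.40 in MASCs. Kdm7a, an H3K9 and H3K27 demethylase, was 4.32, 10.1, 4.23 and 7.89 FPKM in SSCs and 1.35 to 2.67 FPKM in MASCs, and fell by 1.27 (limma adjusted p = 0.00202).

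The Y-linked copies were measured too. Kdm5d was 3.93 to 8.02 FPKM in SSCs and 0.217 to 4.86 FPKM in MASCs, with a difference of -1.12 (SE 0.41, limma adjusted p = 0.0647), and Uty was 1.79 to 7.74 FPKM in SSCs and 0.374 to 6.28 FPKM in MASCs, with a difference of -0.17 (SE 0.68, limma adjusted p = 0.949). Neither was called. In MASC.2 Kdm5d and Uty were 0.217 and 0.374 FPKM, in ESC.1 they were 0.220 and 0.0673 FPKM, and in MEF they were 0.00190 and 0.00200 FPKM. These 3 samples were the lowest of the 17 for both genes. Kdm5d was lower in ESCs than in SSCs by 2.19 (SE 0.55, limma adjusted p = 0.0189), with 0.220 FPKM in ESC.1 and 0.667 FPKM in ESC.2. Comparisons that hold MASC.2, ESC.1 or MEF thus also differ in Y-linked RNA, and its part in them was not tested.

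**Figure D5:**
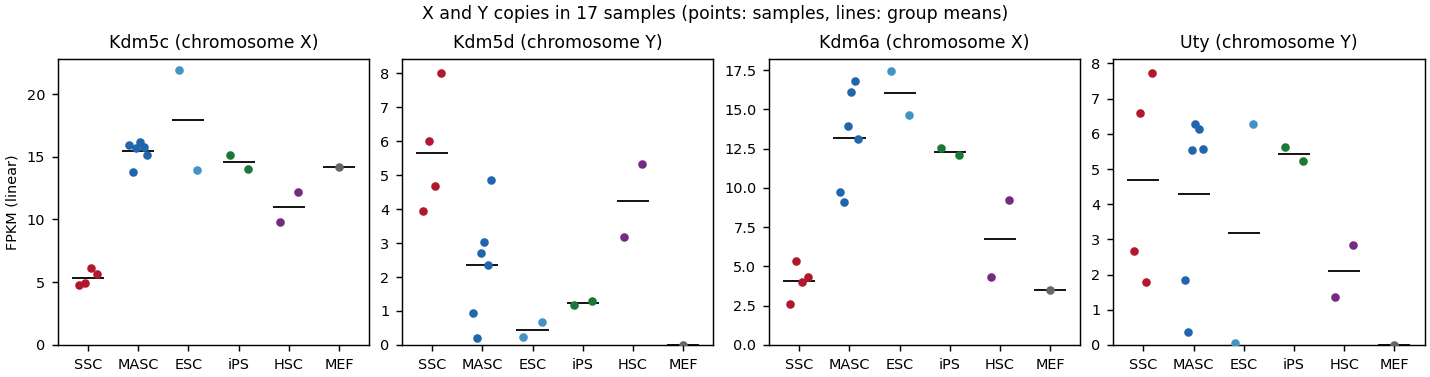
FPKM on linear axes from 0 for the X-linked Kdm5c and Kdm6a and the Y-linked Kdm5d and Uty, with 1 point per sample, the 6 groups on the horizontal axis and a line at each group mean. SSC lines are the lowest of all groups for Kdm5c, at 4.75 to 6.13 FPKM, and the Y copies are near 0 in MASC.2, ESC.1 and MEF.

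In HSCs against the pluripotent groups and in iPS cells against MEF, the genes of this list with the largest called differences were Jmjd1c and Phf2. Jmjd1c, a relative of Kdm3a, was lower in HSCs than in the pluripotent groups by 2.55 and higher in iPS cells than in MEF by 2.55 (limma adjusted p = 9.72e-06 and 0.000708). Phf2 was higher in HSCs than in the pluripotent groups by 2.06 and lower in iPS cells than in MEF, where the difference was -2.10 (limma adjusted p = 3.11e-06 and 0.000255). In counts, 2 of the 16 were higher and 6 lower in HSCs than in the pluripotent groups, beside 15.9% and 17.4% of all transcripts, and 5 were higher and 1 lower in iPS cells than in MEF, beside 11.4% and 10.3%.

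Subunits that work with these enzymes were counted as a list of 20. In MASCs 5 rose and 5 fell relative to SSCs (limma), beside 11.4% and 19.5% of all transcripts, or 17.9% and 27.9% of the expressed ones. The largest differences were in Zmym3 and Phf21a, which bind the Kdm1a complex with CoREST, and in Bcorl1, of the Polycomb complex that holds Kdm2b. Zmym3 and Bcorl1 are X-linked. Zmym3 was 89.7, 30.8, 49.9 and 64.8 FPKM in SSCs and 4.41 to 9.44 FPKM in MASCs, and fell by 2.91 (SE 0.29, limma adjusted p = 5.62e-05). Bcorl1 was 7.47 to 14.8 FPKM in SSCs and 0.783 to 1.83 FPKM in MASCs, and fell by 2.56 (SE 0.19, limma adjusted p = 1.15e-05). Phf21a was 7.92 to 12.1 FPKM in SSCs and 1.72 to 3.32 FPKM in MASCs, and fell by 1.69 (SE 0.20, limma adjusted p = 0.00017). Other subunits of the Kdm1a complex went the other way, among them Hdac1 and Hmg20b, named after their values were seen. Hdac1 was 77.7 to 95.8 FPKM in SSCs and 154 to 177 FPKM in MASCs. Hmg20b was 5.62 to 7.29 FPKM in SSCs and 15.5 to 27.1 FPKM in MASCs. In ESCs Zmym3, Bcorl1 and Phf21a were lower than in SSCs, by 2.25, 2.53 and 1.56. Kdm1a itself was not called in either comparison. Rcor2, the CoREST protein of pluripotent cells, was 4.37 and 8.82 FPKM in HSCs and 37.0 to 94.6 FPKM in the pluripotent lines, where it had the largest difference of the list at -3.17 (SE 0.34, limma adjusted p = 1.91e-05). It was also higher in iPS cells than in MEF by 3.60 (limma adjusted p = 0.000518).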

How the data were processed

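RNA-seq was made from total RNA with TruSeq libraries. The authors aligned reads to mm9 with TopHat (TopHat2 2.0.11 in the submitters' processing notes), excluded duplicates and reads with several positions, and deposited 1 Cufflinks table per sample with FPKM (upper-quartile and GC normalization) and its confidence bounds for RefSeq transcripts. The deposited coverage, a signal in reads per base, was used only for depth. After 601 repeat entries for further loci were left out of 33262, 32661 transcripts remained. Values were analysed as log2(FPKM + 1), a scale that understates differences of low genes, with no filter on low values.

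Groups were compared with limma 3.58.1 (R 4.3.3), on the 12 SSC, MASC and ESC lines or on all 17 samples for comparisons with HSC, iPS or MEF, and called at a Benjamini-Hochberg adjusted p under 0.05 over all transcripts. For a simulated MASC minus SSC comparison over 32661 transcripts, 159 of 200 transcripts changed by 2 (log2) were recovered, with 11 false calls. The noise was independent and normal, and the changed transcripts had a mean log2 level of 2 or more. Far fewer transcripts were changed than were called in the data. These figures therefore check the code and do not give the recovery or error rate of the reported calls. The demethylases and both gene lists were chosen with earlier results of these data known. Named from the lists were the X and Y copies and, per comparison, up to 3 called genes with the largest difference. Other genes of the lists were named after their values were seen, as stated with them. Upstream windows of 250 bases were read from mm9 and searched on both strands for the GC box, CCAAT box and E-box, and for the octamer spelled ATGCAAAT, the ETS motif spelled CCGGAAGT, the cyclic AMP element spelled TGACGTCA and the NRF1 motif, with overlapping copies counted. The share of all windows with these last motifs was 1.6%, 3.81%, 2.02% and 0.993%, and the printed stretches held none. Figures were drawn with matplotlib 3.10.9. Alternatives were another pseudocount, a filter on low values, quantile normalization, equal medians, trend and robust estimation, other call rules, blocks, gene totals, other fits and lines left out.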

Additional observations from a re-analysis of the deposited data

How the results depend on the processing

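The 6 demethylases called in MASC minus SSC, the 5 in ESC minus SSC and the 4 in iPS minus MEF kept their direction and call in all 120, 80 and 36 values from other fits, as did the long Kdm2b transcripts in MASC minus SSC in 38 of 38. In ESC minus SSC the long transcripts lost the call in 12 of 30 values. In HSC minus pluripotent 15 of 100 values lost the call, and in HSC minus SSC 4 of 140. The cause was not tested.

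Under the stricter rule, with its shares of all transcripts in the report, the counts were 1 higher and 1 lower in MASC minus SSC, 1 lower in ESC minus SSC, 1 lower in HSC minus pluripotent, and 0 higher and 3 lower in HSC minus SSC. With a minimum difference of 1 they were 1 higher in MASC minus SSC (6.04% of all transcripts) and 0 higher in HSC minus SSC (8.75%). Quantile normalization and equal medians each gave 2 higher in ESC minus SSC, where 9.08% and 41.2% of all transcripts were called higher. With equal medians unexpressed transcripts were shifted too, so the 41.2% does not tell how many rose. With a strain block, 2 were lower in HSC minus pluripotent (9.21%) and 1, Kdm6b, in iPS minus MEF (10.6%). With lines left out in turn, 4 to 5 were lower in MASC minus SSC (5 without SSC.2, 19.7%), 1 to 2 were higher in ESC minus SSC (2 without SSC.4, 6.79%) and 0 to 2 in HSC minus SSC (0 without HSC.2, 10.7%).

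The replicate numbers showed no pairing of the lines (mean correlation of deviations -0.031 over 4 same-numbered MASC and SSC pairs, 0.005 over 20 others). With 4 pairs this check cannot exclude a pairing. With the replicate block, 1 was higher in HSC minus SSC (9.56%) and Kdm2a was -0.094 in MASC minus ESC. A replicate block could not be fitted for iPS minus MEF, since the label of the MEF sample carries no number.

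Directions that turned were all of differences not called. With equal medians, chosen after seeing the data, Kdm1a was 0.122 in MASC minus SSC and 0.198 in ESC minus SSC, and Kdm5b 0.178 in ESC minus SSC. Without the 4 lines of highest fibroblast markers, also chosen after seeing the data, Kdm5b was 0.103 in ESC minus SSC, and Kdm1a 0.052 and Kdm4c 0.124 in MASC minus ESC. Other values were 0.047 for Kdm5b in ESC minus SSC and -0.051 for Kdm6b in HSC minus pluripotent (strain block), 0.099 for Kdm2b in MASC minus SSC (gene totals) and 0.002 for Kdm4a in iPS minus ESC (quantile normalization). With 1 line left out, ESC minus SSC ran from -0.249 to 0.031 for Kdm5b and from -0.197 to 0.033 for Kdm1a. MASC minus ESC ran from -0.197 to 0.154 for Kdm1b, from -0.167 to 0.062 for Kdm1a, from -0.013 to 0.113 for Kdm2a, from -0.269 to 0.036 for Kdm4c and from -0.042 to 0.568 for Kdm6b. In iPS minus ESC Kdm4a ran from -0.186 to 0.089 and Kdm5b from -0.034 to 0.346, and in HSC minus pluripotent Kdm2a ran from -0.256 to 0.431 and Kdm4a from -0.002 to 0.16.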
